A study of Mus musculus with 12 samples.

Results

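The nuclear factor I (NFI) family comprises the transcription factor genes Nfia, Nfib, Nfic and Nfix, and their mRNA levels were followed in mouse mammary cancer tumourspheres. The members were taken by name and found through their Ensembl identifiers, and all 4 were present among the 18278 genes of each count file. Tumourspheres, clusters of cells that grow without attachment, had been seeded at 10000 cells per mL and cultured for 6 days with 20 ng per mL of EGF and as much bFGF. The 12 RNA-seq libraries came 3 each from the lines LM1 and LM9 and from their Nfib KO derivatives. LM1 and LM9 are lines from lung metastases that arose after piggyBac transposon mutagenesis of HR1, a non-metastatic line from mammary tumours driven by an activated mutant PIK3CA, so all 4 groups share that origin. For the KO groups, Nfib had been targeted in each line with CRISPR-Cas9 and guides against the first and second exons, and single-cell clones screened by immunoblot had been pooled in equal shares. Each KO group is therefore a pool of a few clones, which differs from its parental line in cloning as well as in the targeted gene. LM1 and LM9 are called parental below, and the libraries labelled LM1KO or LM9KO are called LM1 KO-labelled and LM9 KO-labelled.

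NFI proteins bind DNA as dimers through a conserved amino-terminal domain, and they recognise the palindrome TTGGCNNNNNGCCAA or its half-site TTGGC. They can activate or repress transcription, often at enhancers where they act beside other factors. In mice NFIA and NFIB are best known for brain and lung development, NFIC for tooth root formation and NFIX for muscle and neural stem cells, and in the mammary gland NFI sites occur in the control regions of milk protein genes. The family members are so alike in the DNA-binding part that it had to be asked whether reads can tell them apart. A coding stretch of 90 bases around the longest exact match between Nfic and Nfix is shown for this reason. It is given in the coding direction from 5′ to 3′, with the bases that differ between members in capitals.
Nfia: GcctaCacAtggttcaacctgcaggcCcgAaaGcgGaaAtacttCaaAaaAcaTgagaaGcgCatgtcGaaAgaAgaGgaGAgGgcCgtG
Nfib: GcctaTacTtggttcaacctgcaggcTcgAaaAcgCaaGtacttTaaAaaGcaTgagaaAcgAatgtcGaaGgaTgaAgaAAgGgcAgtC
Nfic: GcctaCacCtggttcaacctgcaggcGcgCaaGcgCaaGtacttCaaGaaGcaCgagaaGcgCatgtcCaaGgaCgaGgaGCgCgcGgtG
Nfix: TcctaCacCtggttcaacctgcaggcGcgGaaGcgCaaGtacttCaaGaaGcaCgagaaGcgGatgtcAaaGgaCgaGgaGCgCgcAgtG
These bases were read from GENCODE M21 transcripts and lie in the second exon of each transcript on GRCm38 (mm10), at chr4:97783133-97783222 on the plus strand for Nfia, chr4:82498629-82498718 on the minus strand for Nfib, chr10:81420658-81420747 on the minus strand for Nfic and chr8:84772175-84772264 on the minus strand for Nfix. Of the 90 positions, 67 were the same in all 4 genes. Nfic and Nfix shared 85 positions (94.4%), whereas the other pairs shared 72 to 76. The window was placed around a match of Nfic and Nfix, so this contrast partly follows from that choice. Over all annotated transcripts the longest exact stretch common to 2 members was 32 bases, in Nfic and Nfix, and the other pairs had 18 to 25. No pair shared a stretch as long as the 76-base reads, so a full-length read without errors has 1 best origin among the 4 annotated genes.

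The genes lie at 4 separate places. Nfib (ENSMUSG00000008575) spans chr4:82290173-82705750 on the minus strand and Nfia (ENSMUSG00000028565) chr4:97772734-98118874 on the plus strand of the same chromosome. Nfic (ENSMUSG00000055053) spans chr10:81396186-81455635 and Nfix (ENSMUSG00000001911) chr8:84699876-84800344, both on the minus strand. All are protein-coding. The union of their annotated exons measures 14957 bases for Nfib, 10891 for Nfia, 7351 for Nfix and 6630 for Nfic.

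Library totals ran from 29249075 to 37162594 counts, and every NFI gene had at least 835 counts in every library, far above a floor of 3 counts. Across genes, the log2 levels of LM9 replicate 1 had r = 0.998 with those of LM1 and 0.972 to 0.974 with LM9 replicates 2 and 3, so the LM9 results of each member are also given without it. Whether this library came from LM1 cells was not tested and gene counts alone do not show it. The LM1 KO-labelled and LM9 KO-labelled libraries correlated with each other at 0.998 to 0.999, as highly as the libraries within each of these groups. No gene passed between them in the fit of all libraries and 6 passed when these groups were fitted alone, and results over both lines take them as separate from their labels. Whether they share a source was not tested. They also differed from the parental libraries at most genes, markers of cell type included. The 7 mammary luminal markers (Krt8, Krt18, Krt19, Epcam, Cdh1, Elf3 and Cldn3) summed to 753 to 1234 CPM of the library total in the parental libraries and to 1.20 to 1.55 CPM in the KO-labelled ones, where Cldn3 had 0 counts. The 6 fibroblast markers (Col1a1, Col3a1, Pdgfra, Pdgfrb, Dcn and Lum) summed to 144 to 296 CPM in the parental and 1447 to 1553 CPM in the KO-labelled libraries. Col1a1 made up most of the latter, at 958 CPM in the LM1 KO-labelled libraries against 6.10 CPM in LM1. Dcn moved the other way, from 90.7 to 11.5 CPM in LM1 (limma-voom adjusted p = 0.000162) and from 38.4 to 12.4 CPM in LM9 (0.0576), and the other 5 rose in both lines. In LM9 replicate 1 Dcn was at 84.4 CPM, against 15.7 and 15.1 CPM in LM9 replicates 2 and 3, and without replicate 1 its log2 change in LM9 was −0.32 and passed (limma-voom adjusted p = 0.00114). Of 5 endothelial markers 2, Pecam1 and Cdh5, were in the files, with sums up to 1.10 CPM against 75.5 to 83.3 CPM. Cdh5 made up nearly all of the latter, with a mean of 73.3 CPM in the LM1 KO-labelled libraries against 0.0223 CPM in LM1, while Pecam1 did not pass in either line (limma-voom adjusted p = 0.577 and 0.205). Pecam1 was at 0.169 CPM in LM9 replicate 1 and at 1.33 and 1.14 CPM in LM9 replicates 2 and 3, and without replicate 1 it passed in LM9 as lower (log2 −1.89, limma-voom adjusted p = 1.66e-05). Of 5 leukocyte markers 1, Cd68, was in the files, at 426 to 456 against 106 to 115 CPM. Of 6 basal markers 2, Krt14 and Trp63, were in the files. Krt14 rose from 0.0584 to 6.79 CPM in LM1 and from 0.145 to 6.51 CPM in LM9, whereas Trp63 fell from 17.1 to 0.302 CPM in LM1 and did not pass in LM9 (limma-voom adjusted p = 0.412). Trp63 was at 17.9 CPM in LM9 replicate 1 and at or under 0.276 CPM in LM9 replicates 2 and 3. The part of these marker differences in the NFI results was not tested, and in bulk RNA fewer cells of a type and less RNA per cell cannot be told apart.

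Nfib, the targeted gene, was examined first, because a lower level would check the labels. Its mRNA was not lower in the KO-labelled libraries. Levels from here, and of single marker genes above other than Cd68, are counts-per-million scaled by TMM factors (CPM) unless library totals are named. Nfib was at 196, 217 and 241 CPM in LM1 and at 239, 238 and 228 CPM in the LM1 KO-labelled libraries. The 2 groups overlapped, with means of 218 ± 22.6 and 235 ± 5.67 CPM (SD, n = 3), and the difference of 0.11 on the log2 scale (SE 0.16) did not pass (limma-voom adjusted p = 0.533). On library totals without scaling factors the LM1 groups did not overlap, and the difference of 0.34 did not pass either (adjusted p = 0.119). In LM9 the values were 210.3, 119.6 and 133 CPM, and in the LM9 KO-labelled libraries 227, 247 and 246 CPM. Here Nfib was higher in every KO-labelled library than in every LM9 library, and it rose by 0.68 on the log2 scale (SE 0.17, limma-voom adjusted p = 0.00260). LM9 replicate 1 set much of the spread. Without it LM9 averaged 127 CPM and the log2 fold change was 0.93 (SE 0.07, adjusted p = 1.14e-09), and on library totals with all libraries it was 1.03. Counts over a whole gene do not show whether a transcript is intact, so these levels do not bear on the protein, and the groups are named by their labels throughout. Every direction below rests on those labels.

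Nfix was the member that changed most. It was at 216, 191 and 217 CPM in LM1 and at 50.7, 46.8 and 52.0 CPM in the LM1 KO-labelled libraries. No value of one group reached the other, and the fall was 4.17-fold (log2 fold change −2.06, SE 0.13, limma-voom adjusted p = 5.06e-08). In LM9 Nfix was at 214, 140.1 and 157 CPM, against 43.4, 45.0 and 49.2 CPM in the LM9 KO-labelled libraries. The fall was 3.67-fold (log2 −1.87, SE 0.14, adjusted p = 1.26e-07), and 3.23-fold without LM9 replicate 1 (log2 −1.69, SE 0.07, adjusted p = 3.07e-13). In raw counts the 6 parental libraries held 3478 to 6349 Nfix counts and the 6 KO-labelled libraries 1675 to 2014, although the latter had larger totals on average.

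Nfia also fell in both lines, by less. Its values were 53.5, 58.1 and 62.7 CPM in LM1 and 24.8, 25.4 and 24.7 CPM in the LM1 KO-labelled libraries, a 2.32-fold fall (log2 −1.21, SE 0.15, limma-voom adjusted p = 1.38e-05). In LM9 Nfia was at 56.6, 33.6 and 39.1 CPM, and in the LM9 KO-labelled libraries at 25.0, 27.2 and 27.5 CPM. The groups did not overlap and the fall was 1.59-fold (log2 −0.67, SE 0.15, adjusted p = 0.00168). Without LM9 replicate 1 it was 1.36-fold (log2 −0.45, SE 0.08, adjusted p = 3.01e-05). On library totals without scaling factors, however, the LM9 groups overlapped and the change of −0.31 did not pass (adjusted p = 0.149). That scaling moves the median of all genes from 0.08 to 0.31 in LM1 and from 0.13 to 0.49 in LM9, on the log2 scale.

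Nfic, the most abundant member, moved the other way. It was at 307, 280.2 and 323 CPM in LM1 and at 425, 409 and 434 CPM in the LM1 KO-labelled libraries. The rise was 1.40-fold (log2 0.48, SE 0.07, limma-voom adjusted p = 3.12e-05). In LM9 Nfic was at 304, 306 and 337 CPM, against 389, 397 and 409 CPM in the LM9 KO-labelled libraries, and it rose 1.26-fold (log2 0.34, SE 0.07, adjusted p = 0.000541). The groups did not overlap in either line. Nfic was also the only member whose LM9 replicate 1 lay close to LM9 replicates 2 and 3, and leaving that library out gave a log2 fold change of 0.31 (adjusted p = 2.37e-05). On library totals the rise in LM9 was 0.69.

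**Figure D1:**
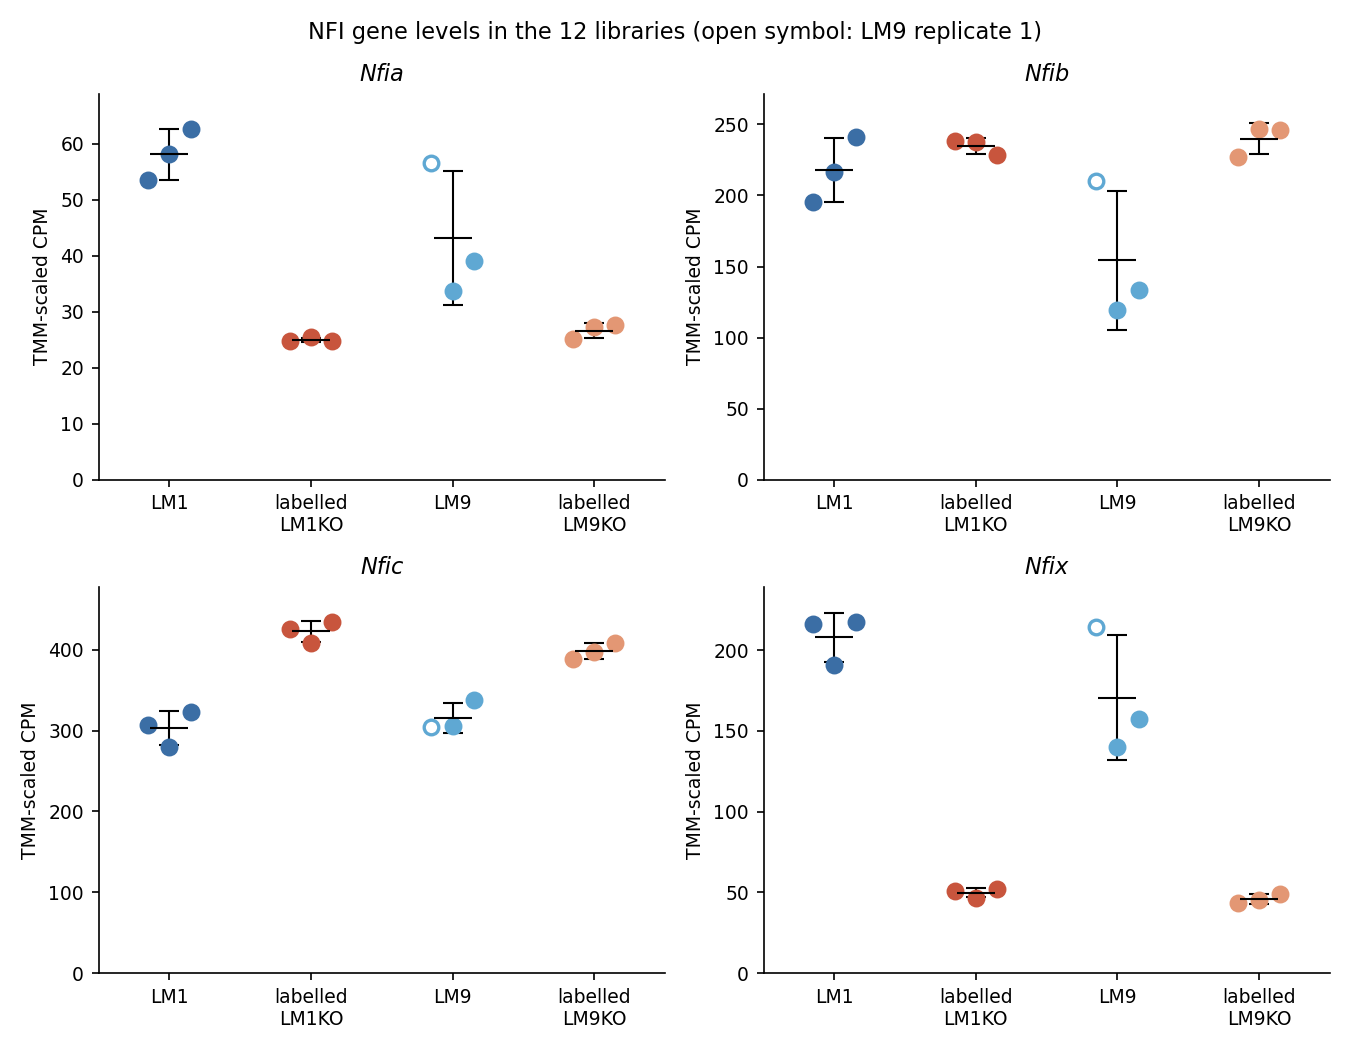
TMM-scaled CPM of the 4 NFI genes (y axes from 0) in the 12 libraries, with points for libraries, an open point for LM9 replicate 1, and the mean and SD of each group in black. Nfix and Nfia are lower and Nfic is higher in all KO-labelled libraries than in their parental line, while Nfib overlaps between LM1 and the LM1 KO-labelled libraries.

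In the LM1 comparison 1 of the 4 members passed as higher and 2 as lower, and among all 18176 genes tested 43.1% passed as higher and 38.1% as lower. In the LM9 comparison 2 members passed as higher and 2 as lower, against 44.3% and 38.0% of all genes. The counts were the same 2 and 2 without LM9 replicate 1, against 47.7% and 41.2%. Most genes passed, so the sizes of the changes were compared as well. The fall of Nfix in LM1 was larger than the absolute change of 71.3% of all genes, and in LM9 of 66.1%. For Nfia these shares were 51.7% and 29.4%, for Nfic 23.0% and 15.2% and for Nfib 5.91% and 29.6%. Over all genes the median absolute change was 1.16 in LM1 and 1.24 in LM9 on the log2 scale, so Nfia was near the middle of all genes in LM1, and Nfib and Nfic lay below the middle in both lines.

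**Figure D2:**
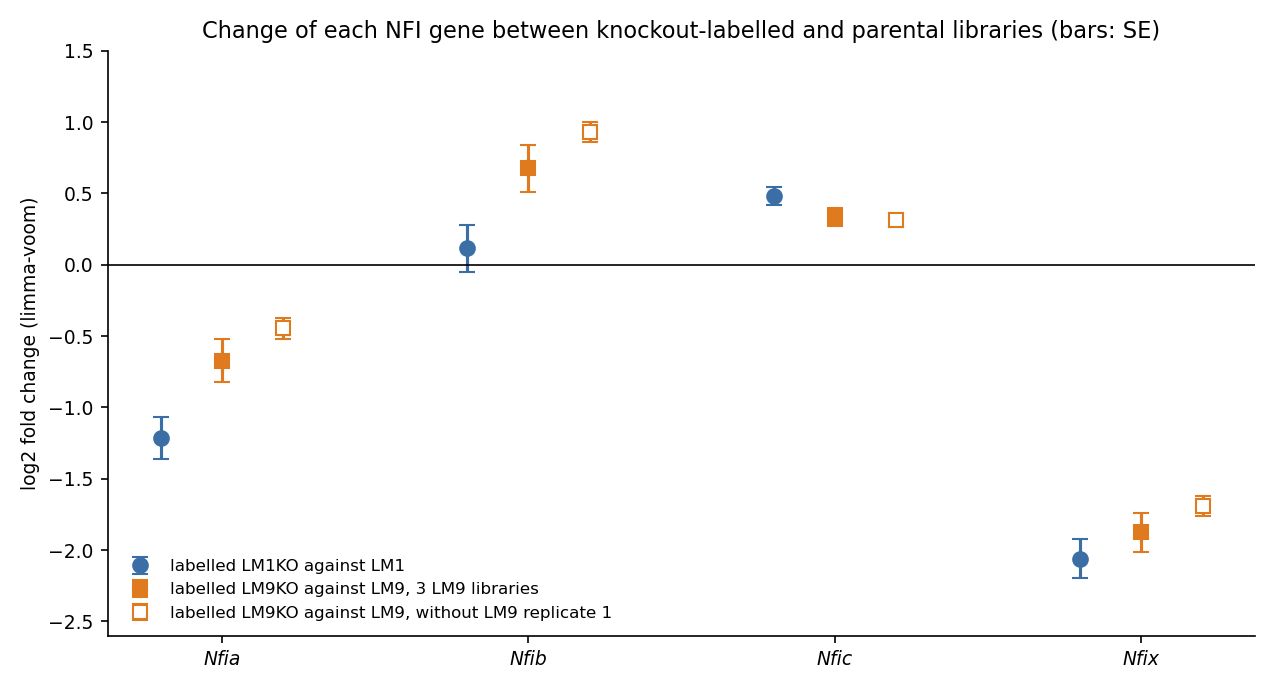
log2 fold changes from limma-voom (y axis) of the 4 NFI genes between KO-labelled and parental libraries, with SE as bars, circles for LM1, filled squares for LM9 and open squares for LM9 without replicate 1. Nfix shows the largest fall in each comparison, from −2.06 to −1.69, and Nfib differs most between the LM1 and LM9 symbols.

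Whether the 2 lines responded differently was tested as the difference of the log2 fold changes, LM1 minus LM9. It was −0.54 (SE 0.21) for Nfia, −0.56 (SE 0.23) for Nfib, 0.15 (SE 0.09) for Nfic and −0.18 (SE 0.19) for Nfix. With all libraries none of the 4 members passed (limma-voom adjusted p = 0.202, 0.202, 0.293 and 0.509), and neither did any other gene, 0.0% of those tested, although 4495 had an unadjusted p under 0.05. The edgeR quasi-likelihood test called 1 gene for this difference and DESeq2 78. Without LM9 replicate 1 all 4 members passed, as did 57.2% of all genes. The differences were then −0.77 for Nfia (limma-voom adjusted p = 3.90e-06), −0.81 for Nfib (8.28e-07), 0.17 for Nfic (0.0399) and −0.36 for Nfix (0.00335). Sample quality weights, which keep all libraries, also gave a difference that passed for Nfia, Nfib and Nfix.

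The comparison of the parental lines also changed with this library. With all libraries the log2 difference LM1 minus LM9 was 0.45 for Nfia, 0.53 for Nfib, 0.30 for Nfix and −0.06 for Nfic, and no member passed (limma-voom adjusted p = 0.0543, 0.0543, 0.0887 and 0.492). Of all genes 1 passed, or 0.0055%, while 8661 had an unadjusted p under 0.05, edgeR called 1 and DESeq2 6159. Without LM9 replicate 1 Nfia was higher in LM1 than in LM9 by 0.68 (limma-voom adjusted p = 2.87e-07), Nfib by 0.78 (4.74e-08) and Nfix by 0.48 (4.22e-06), while Nfic differed by −0.09 (0.166), and 65.7% of all genes passed. With all libraries kept, Nfia and Nfib also passed by DESeq2 (adjusted p = 0.0388 and 0.0325), on library totals (0.0466 for each) and among genes at a mean of at least 5 CPM (0.0461 for each). On library totals the difference of Nfic was 0.07 with the opposite sign.

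Between the KO-labelled groups the members differed little. Relative to the LM9 KO-labelled libraries, the LM1 KO-labelled ones differed by a log2 of −0.09 (SE 0.16) for Nfia, −0.03 (SE 0.16) for Nfib, 0.09 (SE 0.07) for Nfic and 0.12 (SE 0.14) for Nfix. None passed (limma-voom adjusted p = 1.00 for each), nor did any other gene (0.0%), with 178 genes at an unadjusted p under 0.05 and no gene called by edgeR or DESeq2. The values of the 2 groups overlapped for each member on this scale.

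Levels of different genes can be set beside each other only per length, here as CPM per kilobase of exon union. In LM1 the means were 45.7 for Nfic, 28.3 for Nfix, 14.6 for Nfib and 5.34 for Nfia. In LM9 the order was the same, with 47.6, 23.2, 10.3 and 3.96. In the LM1 KO-labelled libraries the means were 63.7 for Nfic, 15.7 for Nfib, 6.78 for Nfix and 2.29 for Nfia, and in the LM9 KO-labelled ones 60.1, 16.0, 6.24 and 2.44. Nfic was thus the highest and Nfia the lowest member in all 12 libraries, and Nfix and Nfib changed places. Nfix lay above Nfib in each of 6 parental libraries, and Nfib above Nfix in each of 6 KO-labelled libraries. The same order was found in all 12 libraries when the longest annotated transcript was taken as the length. Neighbours in this order did not overlap within any group. By counts without length, Nfib lay above Nfix in 2 of 6 parental libraries and in each of 6 KO-labelled libraries. Among 18166 genes with a length, Nfic ranked above 91.8% in LM1 and 94.6% in the LM1 KO-labelled libraries. Nfix went from above 87.1% of genes to above 61.0%, and Nfia from 56.1% to 40.2%, while Nfib was at 76.6% and 77.9%. In LM9 and the LM9 KO-labelled libraries the ranks were 91.0% and 94.3% for Nfic, 83.3% and 59.3% for Nfix, 51.1% and 41.1% for Nfia and 70.0% and 78.4% for Nfib.

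As shares of the family total on this scale, Nfic made up 48.7% ± 0.700 in LM1 and 72.0% ± 0.617 in the LM1 KO-labelled libraries (SD, n = 3). Nfix went from 30.1% ± 1.09 to 7.65% ± 0.243, Nfia from 5.69% ± 0.415 to 2.59% ± 0.0980 and Nfib from 15.5% ± 1.34 to 17.7% ± 0.751. In LM9 the share of Nfic was 48.7% in replicate 1 and 60.5% and 60.0% in replicates 2 and 3, against 70.8% ± 0.566 in the LM9 KO-labelled libraries. The share of Nfix was 30.9% in LM9 replicate 1, 25.0% and 25.3% in the others and 7.36% ± 0.269 in the KO-labelled libraries. Nfib made up 14.9%, 10.5% and 10.5% in LM9 and 18.9% ± 0.467 in the LM9 KO-labelled libraries, and Nfia 5.51%, 4.05% and 4.24% against 2.88% ± 0.0690. The KO-labelled libraries of both lines thus had nearly the same make-up and LM9 replicate 1 had that of LM1. Shares are bound to sum to 100%, so they were not tested.

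The family total itself moved little. It was 93.9 ± 6.06 CPM per kilobase in LM1 and 88.5 ± 2.02 in the LM1 KO-labelled libraries, and 85.1 ± 9.02 in LM9 and 84.8 ± 2.65 in the LM9 KO-labelled ones (SD, n = 3). On library totals without scaling factors it was higher in the KO-labelled libraries, at 97.9 ± 2.13 against 89.0 ± 5.47 in LM1 and 93.6 ± 2.71 against 74.1 ± 13.7 in LM9. In LM9 the total was 94.3 in replicate 1 and 76.3 and 84.8 in replicates 2 and 3, and without replicate 1 its log2 change in LM9 was 0.08. The sign of the change in the total therefore depends on the scaling, and in LM9 also on single libraries.

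**Figure D3:**
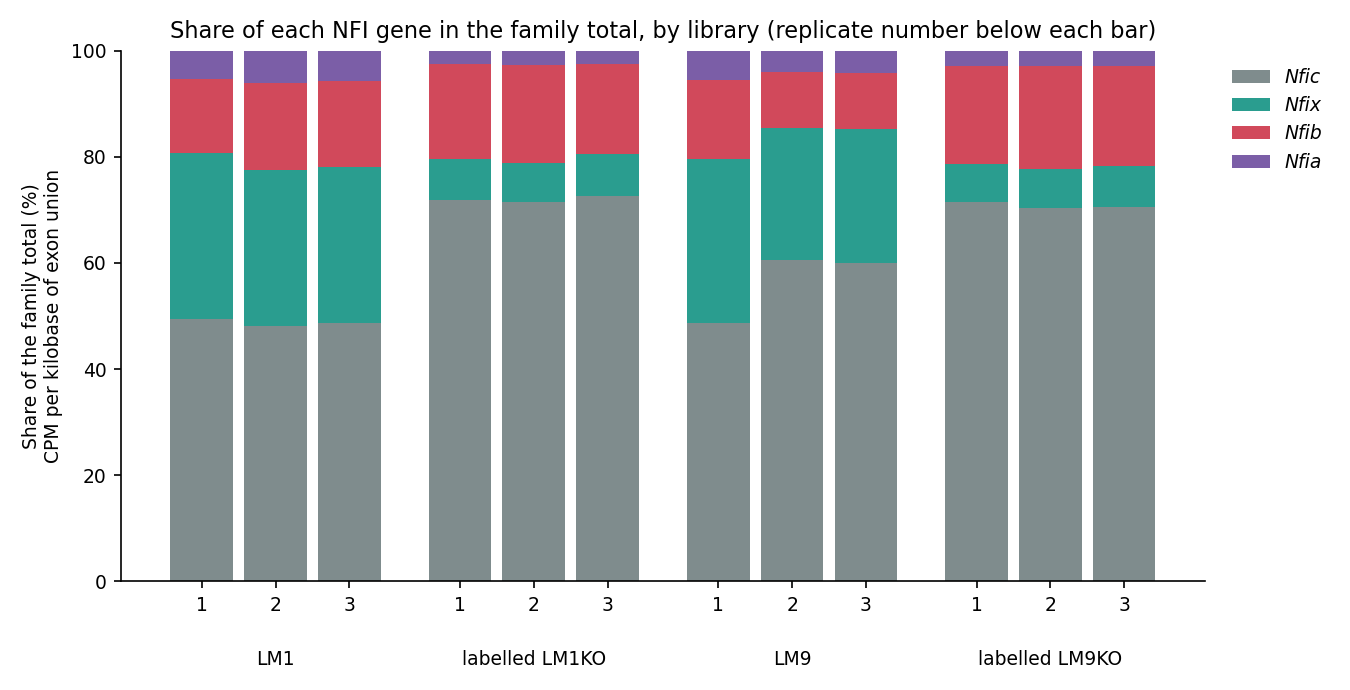
Share of each NFI gene in the family total, in percent of summed CPM per kilobase of exon union (y axis), with 1 bar for each of the 12 libraries. The Nfix share is 25.0% to 31.4% in parental libraries and 7.20% to 7.85% in KO-labelled ones, and the bar of LM9 replicate 1 looks like those of LM1.

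Ratios of the counts of 2 members within a library need no scaling factor. The steadiest was Nfia to Nfib, which lay between 0.260 and 0.293 in all 6 parental libraries, LM9 replicate 1 and the other LM9 libraries included, and between 0.104 and 0.112 in all 6 KO-labelled libraries. Nfia and Nfib were both lower in LM9 replicates 2 and 3 than in LM1, and this ratio was not. The ratio of Nfic to Nfix was 1.42 to 1.49 in LM1 and LM9 replicate 1, 2.18 and 2.14 in LM9 replicates 2 and 3, and 8.30 to 8.95 in the KO-labelled libraries. Nfib to Nfix went from between 0.848 and 1.14 to between 4.39 and 5.49. Nfia to Nfix rose from between 0.240 and 0.305 to between 0.476 and 0.604, and Nfia to Nfic fell from between 0.110 and 0.208 to between 0.0570 and 0.0685.

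The 6 log2 ratios were compared between KO-labelled and parental libraries with an exact two-sided permutation test within lines. Over both lines the mean difference was −1.34 for Nfia to Nfib, −1.35 for Nfia to Nfic, 1.03 for Nfia to Nfix, 2.36 for Nfib to Nfix and 2.37 for Nfic to Nfix. Each of these 5 had an exact permutation p = 0.005, the smallest that 400 arrangements can give, without adjustment over the 6 pairs, and it counts the KO-labelled groups of the lines as separate. Within 1 line the smallest possible exact p is 0.1, and these 5 pairs reached it in each line. Nfib to Nfic was the exception. Its log2 ratio differed by −0.37 in LM1 and by 0.34 in LM9 (exact permutation p = 0.1 and 0.4), and by −0.01 over both lines (exact p = 0.955). Without LM9 replicate 1 it differed by 0.62 in LM9 and by 0.12 over both lines (exact p = 0.485).

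**Figure D4:**
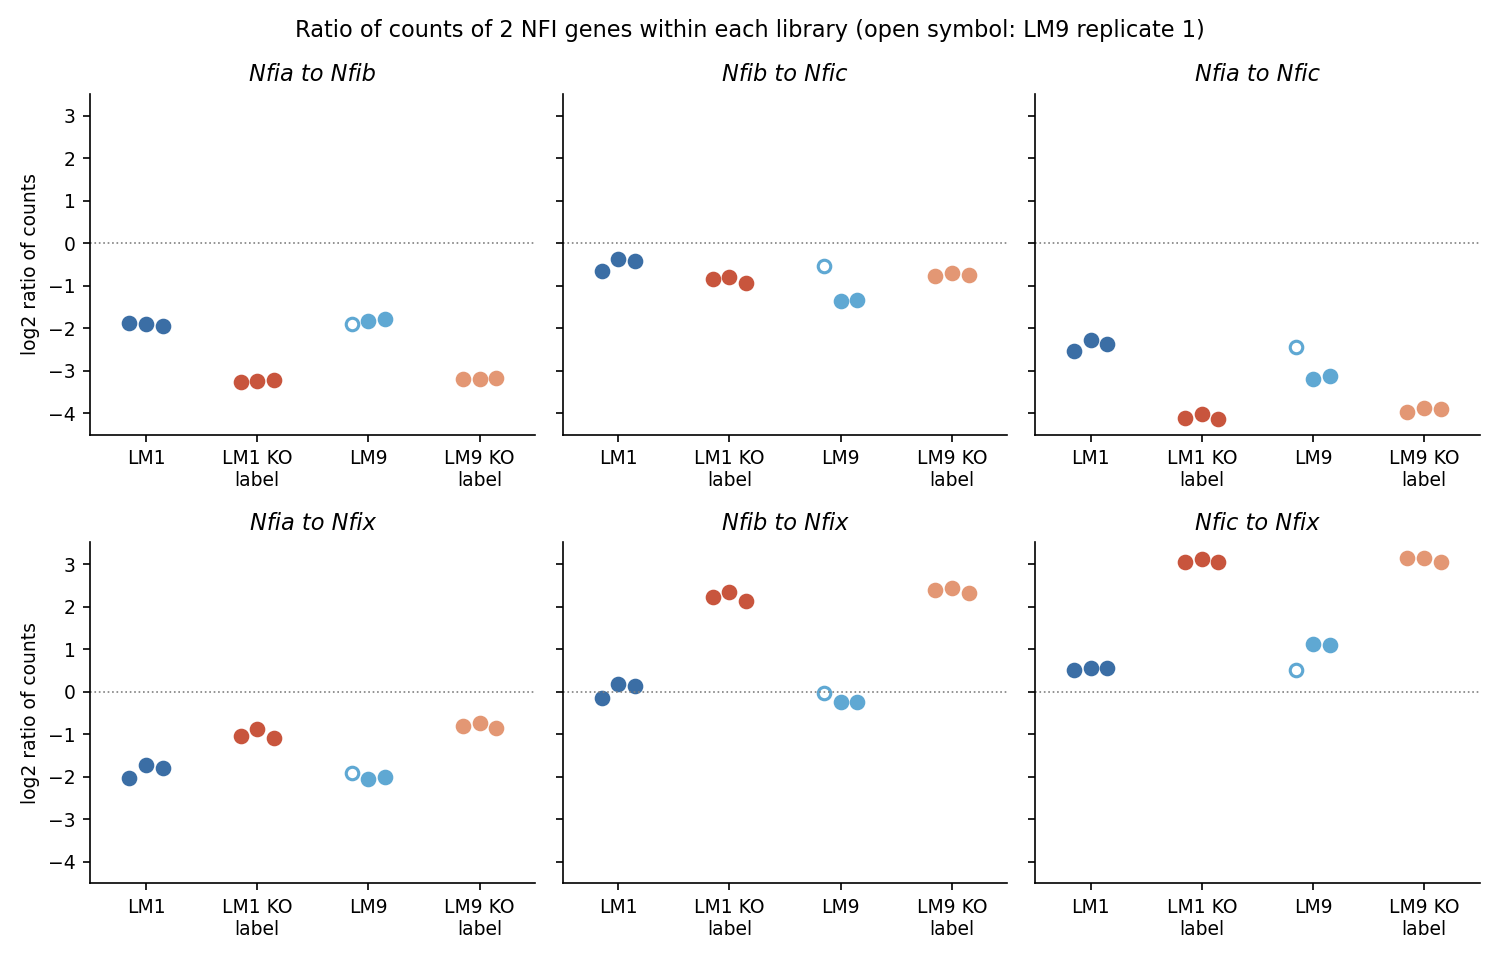
log2 ratio of the raw counts of 2 NFI genes within each library (y axis, shared), 1 panel for each of 6 pairs and 1 point for each library, open for LM9 replicate 1. For 5 pairs the KO-labelled libraries of both lines stand apart from all parental libraries, and for Nfib to Nfic they lie between LM1 and LM9 replicates 2 and 3.

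Genes known as regulators or partners of NFI proteins were looked at next. Of 17 listed genes 15 were in the files and tested. In LM1 5 passed as higher, 7 as lower and 3 did not pass, where 43.1% of all genes passed as higher and 38.1% as lower, and the median log2 fold change was −0.10 against 0.08 for all genes. In LM9 6 were higher and 6 lower, against 44.3% and 38.0% of all genes, with a median of 0.04 against 0.13. Without LM9 replicate 1 these counts were 6 and 7 in LM1, against 46.4% and 42.1% of all genes, and 8 and 6 in LM9, against 47.7% and 41.2%. The counts are near those shares and are no result about the listed genes. Those that changed more than 2-fold in both lines at a mean of at least 10 CPM were Gata3, Smad3, Sox9, Rbpj and Esr1. Gata3, a luminal mammary factor, fell from 123 to 7.23 CPM in LM1 and from 133 to 6.56 CPM in LM9 (limma-voom adjusted p = 1.15e-11 and 8.91e-12). Smad3, an effector of TGF-beta signalling, fell from 314 to 22.2 CPM and from 267 to 22.6 CPM (8.40e-11 and 1.44e-10). Sox9, which induces and partners NFIA in glia, fell with a log2 fold change of −1.89 in LM1 and −2.55 in LM9. Rbpj, the DNA-binding effector of Notch signalling, fell with −1.86 and −1.32. Without LM9 replicate 1 the log2 fold change in LM9 was −2.82 for Sox9 and −1.11 for Rbpj. Esr1, the oestrogen receptor, rose by a log2 of 1.43 and 2.48, from 9.72 to 26.0 CPM and from 5.32 to 26.9 CPM. In LM9 replicate 1 it was at 9.38 CPM and in LM9 replicates 2 and 3 at 3.26 and 3.31 CPM, and without replicate 1 the rise in LM9 was 3.03. Factors known to share mammary enhancers with NFIB moved less. Stat5a rose by 0.81 and 1.00 and the glucocorticoid receptor gene Nr3c1 by 0.32 and 0.52, while Stat5b differed by −0.06 and 0.01 and did not pass in either line (adjusted p = 0.387 and 0.874). Foxa1, a pioneer factor that binds beside NFI proteins, fell from a mean of 0.572 to 0.0503 CPM in LM1 and from 0.858 to 0.0259 CPM in LM9. Of the coactivators, Ep300 passed as higher in LM9 (log2 1.15, adjusted p = 0.000597) and missed the threshold in LM1 (0.46, adjusted p = 0.0711), where it passed once LM9 replicate 1 was left out (0.47, adjusted p = 5.52e-06), and as for every gene its difference between the lines did not pass with all libraries. Crebbp, the other listed coactivator, passed as lower in LM1 (−0.41, adjusted p = 0.0203) and did not pass in LM9 (0.04, adjusted p = 0.815), where without LM9 replicate 1 it passed as higher (0.24, adjusted p = 0.0192).

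Genes reported as NFI targets followed, in other systems apart from Ero1l, which the study itself reported. Of 21 listed 15 were in the files and 14 were tested. In LM1 5 passed as higher and 5 as lower, and in LM9 7 and 6, against the same shares of all genes, with median log2 fold changes of 0.22 and 0.30 against 0.08 and 0.13 for all genes. Without LM9 replicate 1 these counts were 9 and 5 in LM1, against 46.4% and 42.1% of all genes, and 7 and 7 in LM9, against 47.7% and 41.2%. Ero1l, an oxidoreductase of the endoplasmic reticulum, fell from 1142 ± 51.5 CPM (SD, n = 3) in LM1 to 51.5 CPM and from 1336 ± 187 CPM in LM9 to 54.3 CPM, a log2 of −4.47 and −4.61. The study chose this gene by setting changes in tumourspheres and tumours beside published NFIB binding data. These samples were part of that choice, so the fall of Ero1l here is not independent evidence of a direction. Zcchc24 fell from 508 to 63.6 CPM in LM1 and from 326 to 62.8 CPM in LM9, and the Notch target Hes1 from 35.0 to 14.0 CPM and from 116 to 13.8 CPM. Hes1 was at 35.5 CPM in LM9 replicate 1 and at 159 and 153 CPM in LM9 replicates 2 and 3. For Zcchc24 these values were 498 CPM against 236 and 244 CPM. Cd44, the hyaluronan receptor, rose by 1.05 and 0.77, Gja1, which encodes connexin 43, by 0.98 and 0.92, and the integrin gene Itga6 by 0.49 and 0.65. Pdgfa fell from 139 to 90.4 CPM and from 188 to 87.9 CPM. Its level was 144 CPM in LM9 replicate 1 and 217 and 203 CPM in LM9 replicates 2 and 3. Cdkn1a, the cell cycle inhibitor p21, did not pass in LM1 (log2 0.12, adjusted p = 0.645) and fell by 0.69 in LM9 (adjusted p = 0.0131). It was at 75.7 CPM in LM9 replicate 1 and at 160.0 and 156 CPM in LM9 replicates 2 and 3, and without replicate 1 it fell by 1.05 in LM9. Ezh2, a Polycomb methyltransferase described as repressed by NFIB, did not pass in either line (log2 0.29 and −0.04, limma-voom adjusted p = 0.0515 and 0.750), and without LM9 replicate 1 it passed as higher in LM1 (0.30) and as lower in LM9 (−0.23). Cdkn1a then also passed as higher in LM1 (0.12, limma-voom adjusted p = 0.0135). In promoters from RefSeq on GRCm38.p6, each 250 bases before to 50 after a start, none of the 18 entries of the listed targets and none of the 19 entries of the listed regulators held the palindrome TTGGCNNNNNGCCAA, which occurs in 0.0365% of all 32851 promoters. The half-site TTGGC, on either strand, was in 10 of the 18 and in 6 of the 19, against 46.7% of all promoters, and a full palindrome holds 2 half-sites. Of the NFI genes, 3 had entries, and 3 of their 6 promoters held a half-site, all 3 of them among the 4 promoters of Nfix. A match is a run of letters and not a binding site.

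Annotated genes that overlap an NFI gene were examined because the counting is not stated to use strand. The antisense gene Gm11266, inside the Nfib span at chr4:82508016-82547292, rose from 0.238 to 1.87 CPM in LM1 and from 0.0472 to 1.90 CPM in LM9. E130114P18Rik, which overlaps the start of Nfia on the other strand, was at 0.0118 and 0 CPM in LM1 and LM9 and at 0.510 and 0.443 CPM in the KO-labelled groups, while Nfia fell. G430095P16Rik, within Nfix on the other strand, rose from 0.0939 to 1.10 CPM in LM1 and from 0.116 to 1.19 CPM in LM9, while Nfix fell. Gm16104, antisense to Nfic, fell from 1.87 to 1.29 CPM and from 2.04 to 1.26 CPM, while Nfic rose. All 4 were far below the NFI genes they overlap, and without strand their reads cannot be told apart from those of the partner.

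Within 500 kb of Nfia, 4 genes were tested. Patj, which encodes a cell polarity protein, fell by a log2 of 4.74 in LM1 and 5.16 in LM9, and the pseudogene Gm12696 fell by 1.84 and 1.94, while Tm2d1 differed by 0.01 in LM1 (adjusted p = 0.944) and rose by 0.59 in LM9. Within 500 kb of Nfib, 3 genes were tested, and Zdhhc21, a palmitoyltransferase gene, rose by 0.42 and 0.92 (adjusted p = 0.0135 and 0.000110). The pseudogene Gm11185 was at 0.608 and 0.856 CPM in LM1 and the LM1 KO-labelled libraries (adjusted p = 0.187) and fell from 1.37 to 0.739 CPM in LM9 (adjusted p = 0.0237). The third was Gm11266. The surroundings of Nfic and Nfix are gene-rich. Of 49 tested genes around Nfic, 28 were higher and 9 lower in LM1, and 32 and 13 in LM9, with medians of 1.09 and 1.20 on the log2 scale. Among all genes 43.1% were higher and 38.1% lower in LM1, and 44.3% and 38.0% in LM9, with medians of 0.08 and 0.13. Of 36 around Nfix, 15 were higher and 15 lower in LM1, and 15 and 16 in LM9, with medians of −0.01 and 0.20. Nfix itself changed by −2.06 and −1.87 and Nfic by 0.48 and 0.34. The neighbours of Nfix went both ways, so their median gives no common direction. Whether a member changed together with its surroundings was not tested.

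Finally, genes with the most similar pattern were sought among 9294 protein-coding genes at a mean of at least 10 CPM, by the root mean square difference of centred log2 CPM over the 12 libraries. For Nfix the nearest were Hs6st1, a heparan sulphate sulphotransferase gene (0.0673), Mxd4, a MAX partner gene (0.0744), and Tanc2 (0.0816). Hs6st1 was at 82.3 and 67.7 CPM in LM1 and LM9 and at 18.2 and 17.8 CPM in the LM1 KO-labelled and LM9 KO-labelled libraries. For Nfia they were the histone demethylase gene Kdm5a (0.0481), Ric1 (0.0527) and Fnip1 (0.0585). For Nfib they were the nuclear receptor corepressor gene Nrip1 (0.0478), the cohesin regulator gene Pds5b (0.0509) and Ptpre (0.0556). For Nfic they were Myh9, a non-muscle myosin heavy chain gene (0.0399), Lmnb2, which encodes lamin B2 (0.0445), and the chromatin remodeller gene Smarca4 (0.0466). No member was among the 3 nearest genes of another. The closest pair of members by this measure was Nfib and Nfic, at 0.295, and the most unlike pair Nfic and Nfix, at 1.20. These distances describe 12 libraries in which LM1 with LM9 replicate 1, LM9 replicates 2 and 3, and the KO-labelled libraries each have similar levels, and they say nothing of shared control.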

How the data were processed

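Poly-A RNA of tumourspheres was sequenced as single-end reads in 12 libraries. Per the labels and the study's methods, the authors prepared stranded libraries, aligned the reads with STAR to mm10 and counted read starts over the exon union of each gene with QuasR. The deposited values were raw counts, 1 file per library. Software versions for these RNA-seq steps and the annotation release are not given in the sources used here. Neither are the use of strand in counting and the treatment of reads with several alignments. The labels do not say whether replicates were separate cultures. The study measured tumoursphere cultures in technical triplicate and counted different cell lines or tumours as biological replicates. It also describes biological replicates as assays on different samples, and its tumoursphere formation assay lists both kinds. Which kind these libraries are is not stated, so p-values measure only the spread between these samples, which may be technical.

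Of 18278 identifiers in the files, 18268 matched GENCODE M21 (GRCm38), which gave names, coordinates (1-based) and exon lengths. In each listed gene the third-highest count was at least 8. Differential expression was tested over all genes with limma-voom, the framework of the study's methods (limma 3.58.1, edgeR 4.0.16, R 4.3.3), in 1 fit of all 12 libraries with TMM factors. The filterByExpr function kept 18176 genes at its defaults of 10 and 15 counts. Adjusted p-values are Benjamini-Hochberg values over all genes tested within a contrast, two-sided, and a gene passed under 0.05. CPM values are TMM-scaled except in sentences that name library totals and in marker sums, which include the values of Cd68. The limit that 3 counts set lay between 0.0807 and 0.103 CPM. It covers counting error alone because reads were not collapsed by molecular identifiers. Ratios of counts were compared with exact permutation tests, for which Python 3.11.15 was used. Shares and the family total were described without a test.

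The members and gene lists were chosen with earlier results of these data known. Named genes were the 4 members and list genes that passed in both lines with the same sign. These list genes had a mean of at least 10 CPM and an absolute log2 fold change above 1. Further list genes whose role the text needs were also named. So were tested genes that overlap an NFI gene or lie within 500 kb of Nfia or Nfib. The 3 protein-coding genes most like each member were named as well. Neighbours of Nfic and Nfix that do not overlap them were counted and not named by this rule. Genes named beyond this rule, such as markers, stand where a result touches them. The code was tested on simulated data. With a dispersion of 0.01, limma-voom recovered 199 of 200 genes shifted by 1 on the log2 scale between LM1 KO-labelled and LM1 libraries. It made 13 false calls among 17592 genes. In the measured libraries 14759 of 18176 genes passed in this comparison. How the code performs when most genes change was not tested. Alternatives were the edgeR quasi-likelihood test, DESeq2 1.42.0, median-ratio factors, library totals, all genes unfiltered, a minimum mean of 5 CPM, the replicate number as a block, sample quality weights, only the groups compared, other lengths for shares, 0.5 counts added in ratios and each library left out in turn. Sequences of the CRISPR guides and of the NFI proteins are not shown here.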

Additional observations from a re-analysis of the deposited data

How the results depend on the processing

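The falls of Nfix and the rises of Nfic in both lines, the fall of Nfia in LM1 and the rise of Nfib in LM9 kept their direction and passed in every alternative, and Nfib never passed in LM1 (log2 0.04 to 0.34). The fall of Nfia in LM9 was −0.31 on library totals and no longer passed. Of the alternative values of the member tests, 395 were unaltered in sign and in passing or not, 19 passed newly, 1 no longer passed and 1 changed sign. Sample quality weights, like the exclusion of LM9 replicate 1, gave differences between the lines that passed for Nfia (−0.79), Nfib (−0.84) and Nfix (−0.38), and differences LM1 minus LM9 that passed for Nfia (0.69), Nfib (0.81) and Nfix (0.48). LM1 minus LM9 also passed with DESeq2 for Nfia (0.41) and Nfib (0.47), on library totals (0.59 and 0.67) and at a mean of at least 5 CPM (0.44 and 0.52), and for Nfic it was 0.0731, of opposite sign, on library totals. The cause was not tested. With each library left out in turn, the difference between the lines ranged from −0.77 to −0.38 for Nfia, −0.81 to −0.40 for Nfib, 0.0930 to 0.19 for Nfic and −0.36 to −0.0549 for Nfix. LM1 minus LM9 ranged from 0.29 to 0.68 for Nfia, 0.37 to 0.78 for Nfib, 0.17 to 0.48 for Nfix and −0.105 to −0.0082 for Nfic. The change in the log2 ratio of Nfib to Nfic over both lines ranged from −0.0807 to 0.12. The calls of these ranges that passed came without LM9 replicate 1.

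Over all genes, LM1 against LM9 gave 1 call, but 6159 with DESeq2, 5226 on library totals, 4670 at a mean of at least 5 CPM, 11596 with quality weights and 11995 without LM9 replicate 1. The difference between the lines gave 0, but 10557 with quality weights and 10444 without that library, and the KO-labelled groups differed at 6 genes when fitted alone. Shares taken from the longest transcript changed in LM1 by 4.003 percentage points for Nfib and −23.9 for Nfix, and in LM9 by 9.81 for Nfib. Shares of counts without length changed in LM1 by −3.97 for Nfia, 4.43 for Nfib, 19.2 for Nfic and −19.6 for Nfix, and in LM9 by 11.5 for Nfib and 9.26 for Nfic, in place of 14.5. The change of the family total turned positive on library totals, at a log2 of 0.14 in LM1 and 0.35 in LM9.

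The replicate numbers were checked for pairing. Same-numbered libraries deviated from their group means with correlations from −0.160 to 0.0903, so the numbers were not taken to pair the samples. With the replicate number as a block, Nfix changed by −2.06 and −1.88, Nfia by −1.22 and −0.67, Nfic by 0.48 and 0.34 and Nfib by 0.11 and 0.68 in LM1 and LM9, no call of a member changed, and 14599 and 14839 genes passed in place of 14759 and 14965.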
